A study of Mus musculus with 10 samples.

Results

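The genes described here encode core pre-mRNA splicing factors and hnRNPs, measured in the brains of C57BL/6 mice at 8 weeks and at 1 week of age. The members were all probe sets whose single annotated gene symbol started with Hnrnp, Srsf, Snrp, Sf3a or Sf3b, without regard to their values, which gave 115 of 22626 probe sets and 44 of 12393 genes. They fell into 50 probe sets of 18 hnRNP genes, 28 of 9 SR protein genes, 15 of 8 genes of snRNP proteins and 22 of 9 genes of the SF3A and SF3B complexes. A further 14 probe sets had such a symbol beside others and were not members. Each brain was hybridised to 1 Affymetrix MOE430A array, on which a probe set is a group of short oligonucleotides that reads 1 transcript or several alike. At 8 weeks there were 2 arrays labelled female and 2 labelled male, and at 1 week 3 of each. C57BL/6 is an inbred laboratory strain, and the labels name no genotype or treatment. They do not say whether the brains came from separate animals, so p-values measure the spread between these arrays.

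Splicing removes introns from pre-mRNA in the spliceosome, a machine built around small nuclear RNAs. The snRNP proteins include the Sm proteins, which form a ring on most spliceosomal RNAs, and proteins particular to the U1 or the U2 particle. SF3A and SF3B belong to the U2 particle and hold it at the branch site. SR proteins bind exons and recruit the machinery, whereas hnRNPs coat nascent transcripts and often repress nearby splice sites. In the developing brain many exons change their use as neurons mature, and levels of such regulators are known to bear on that choice.

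Promoter windows of the snRNP genes with the largest falls, Snrpe and Snrpg, and of the one that rose, Snrpn, are shown because these genes moved in opposite directions within 1 class. The sequences are from RefSeq on build GRCm38.p6, run 5′ to 3′ on the gene's strand and hold 250 bases before and 50 after a start, the most upstream of several for Snrpn. Capitals mark matches, on either strand, to CCGGAAG, the core of ETS family sites, to CCAAT or to TATAAA. The matches of Snrpe overlap each other.
Snrpe, chr1:133610231-133610530, minus strand: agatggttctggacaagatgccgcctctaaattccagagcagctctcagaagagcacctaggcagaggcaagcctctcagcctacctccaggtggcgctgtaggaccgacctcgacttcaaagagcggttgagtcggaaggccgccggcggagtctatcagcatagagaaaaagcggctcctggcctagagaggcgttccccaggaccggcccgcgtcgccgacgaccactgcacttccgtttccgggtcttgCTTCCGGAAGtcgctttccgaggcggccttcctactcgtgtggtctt
Snrpg, chr6:86371290-86371589, plus strand: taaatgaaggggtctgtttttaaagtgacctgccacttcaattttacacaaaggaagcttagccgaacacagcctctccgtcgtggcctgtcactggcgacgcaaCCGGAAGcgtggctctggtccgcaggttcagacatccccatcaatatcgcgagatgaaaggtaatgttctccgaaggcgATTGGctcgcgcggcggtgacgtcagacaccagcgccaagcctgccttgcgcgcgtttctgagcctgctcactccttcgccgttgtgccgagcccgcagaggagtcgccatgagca
Snrpn, chr7:60450128-60450427, minus strand: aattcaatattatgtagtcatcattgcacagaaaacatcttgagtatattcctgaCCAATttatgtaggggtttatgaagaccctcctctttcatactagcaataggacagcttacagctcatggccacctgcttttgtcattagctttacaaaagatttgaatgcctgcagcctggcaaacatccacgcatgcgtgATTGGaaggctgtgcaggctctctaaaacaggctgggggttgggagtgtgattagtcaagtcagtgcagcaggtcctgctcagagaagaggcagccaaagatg
The windows of Snrpe and Snrpg held 24 and 26 CG dinucleotides and each had CCGGAAG. That of Snrpn held 2 and had CCAAT without CCGGAAG. The further windows of Snrpn, not printed here, held 3, 4 and 7 and had neither, and the one with 4 had TATAAA. RefSeq gave 55 windows for 39 of the 44 member genes, since some genes have several starts. CCGGAAG was found in 20 of these, 36.4%, against 8.86% of all 32851 windows, which had a median of 7 CG dinucleotides where the members had 25. By class it was in 7 of 8 windows of SF3 genes, 4 of 10 of snRNP genes, 5 of 12 of SR genes and 4 of 25 of hnRNP genes. CCAAT was in 25 member windows, 45.5%, against 37.4% of all, and TATAAA in 6, 10.9%, against 13.6%. These matches describe letters only.

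Of the 115 probe sets, 108 passed the filter on dim values and all 44 genes kept at least 1. The 7 left out belonged to Hnrnpab with 2, and to Hnrnpa1, Hnrnpdl, Sf3b5, Sf3b6 and Snrpb2 with 1 each. Deposited intensities differed in overall brightness between arrays, with trimmed means from 138 to 318, so the arrays were quantile-normalized and each value is relative to the whole distribution of intensities. Values below are normalized intensities, in the order replicates 1 and 2 labelled female and then 1 and 2 labelled male at 8 weeks. Changes are log2 at 8 weeks minus 1 week ± SE, on the scale of log2(intensity + 24), from 1 limma fit over 13576 probe sets with Benjamini-Hochberg adjustment. All 6 neuronal markers looked up, Snap25 among them, passed the filter, as did 6 of 6 for astrocytes. In 4 of the 6 arrays of 1 week, replicates 1 and 2 labelled female and 2 and 3 labelled male, the X-linked transcript Xist stood on the other side from the label. The remaining 2, replicate 3 labelled female and replicate 1 labelled male, read Xist at 866 and 293 and the Y-linked Eif2s3y at 53.9 and 70.7. Labels of 1 week are therefore used as names of arrays.

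The first question was how splicing factor expression differed with age. At 8 weeks, 44 member probe sets were lower and 8 higher at an adjusted p under 0.05, and 56 did not pass. Together 52 of 108 were called, 48.1%, where 46% of all probe sets were, so the overall share lay near that background. The lower calls made up 40.7% of members against 24% of all probe sets, and the higher calls 7.41% against 22%. The median change was -0.23 in members and -0.015 in all probe sets. Without normalization between arrays the member median turned to 0.28, still below the 0.47 of all probe sets. There 44 members were called higher and 3 lower, where 8673 of all 13576 probe sets were higher and 629 lower. Relative to the median of all probe sets, 78 of the 108 lay below with normalization and 77 without it. The ages did not overlap in 39 member probe sets, 36.1%, against 35.4% of all. Changes were small. Those of at least 1.5-fold numbered 13 lower and 3 higher, against 9.16% and 9.18% of all probe sets, and 1 member reached 2-fold, a probe set of Hnrnpab. By gene, with each gene read by its brightest probe set, 18 of 44 were lower, 3 higher and 23 not called, where 24% and 21.9% of all 8148 genes were lower and higher.

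**Figure D1:**
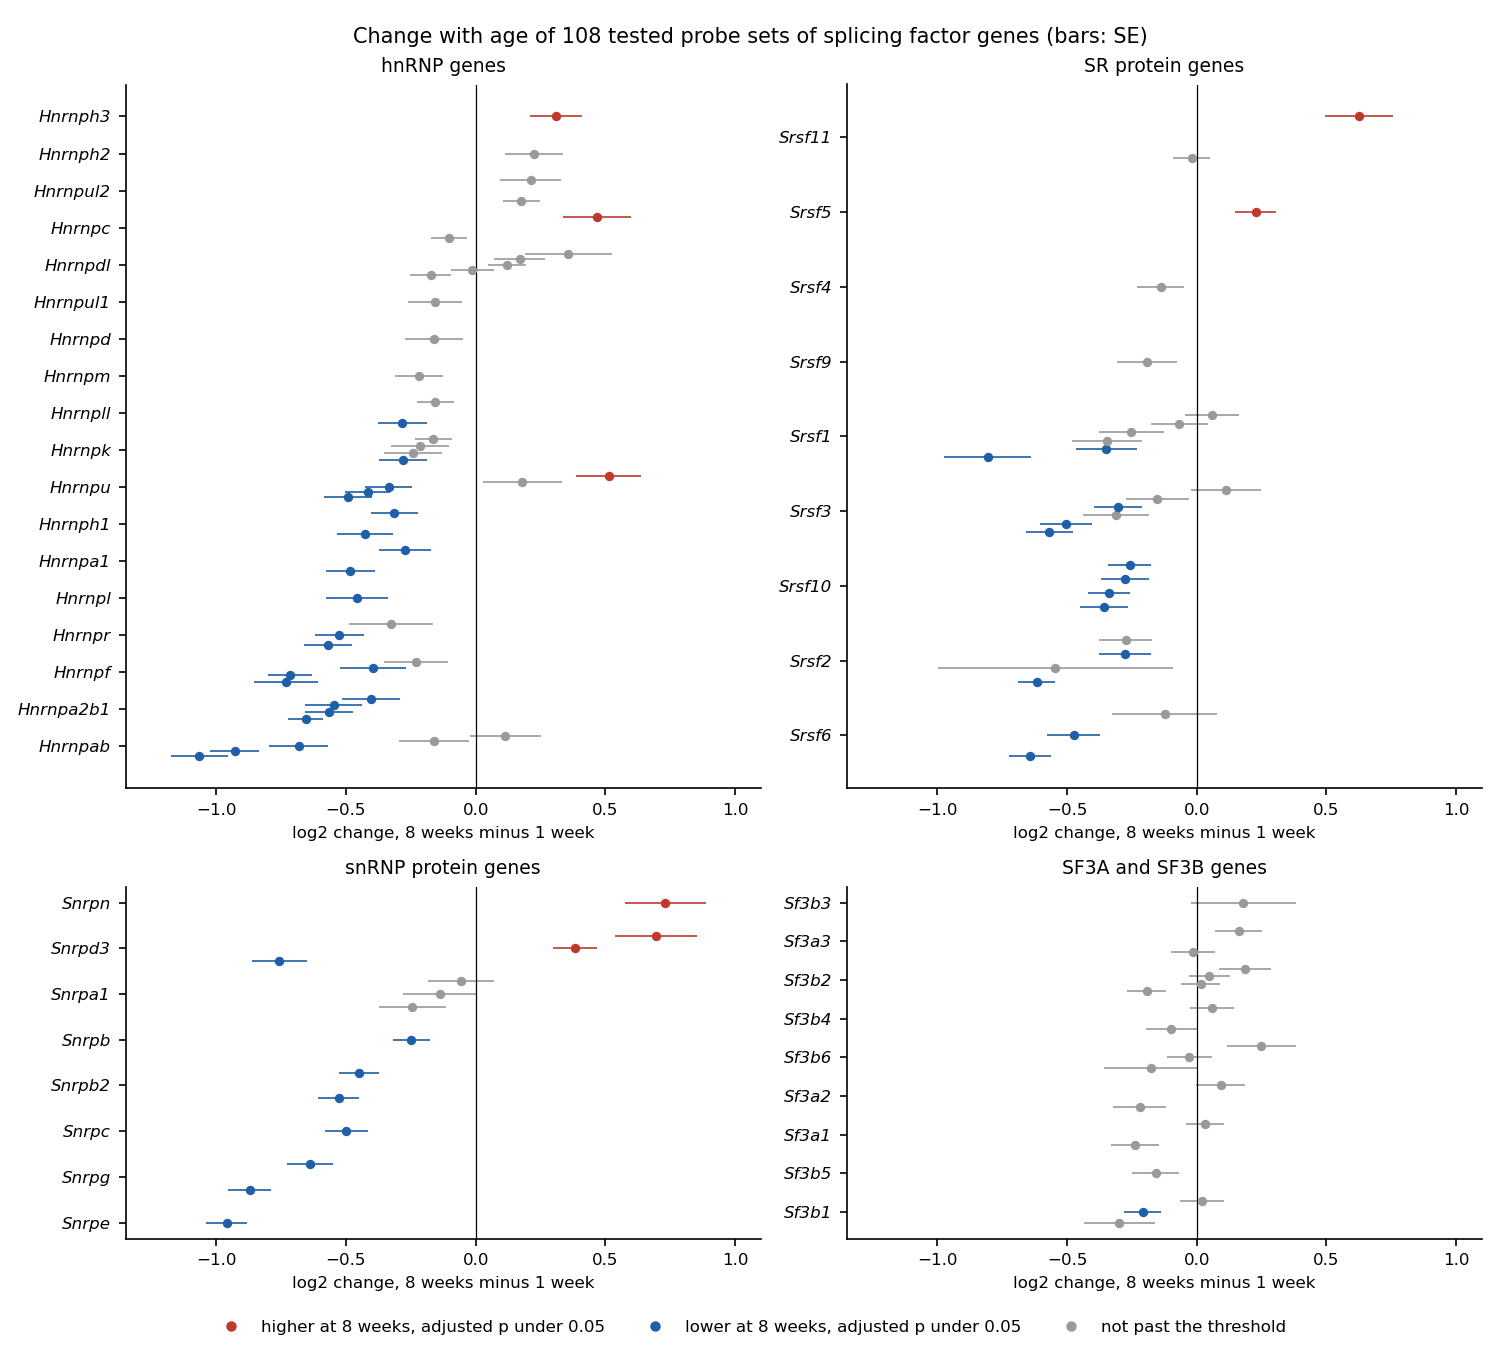
Log2 change with age (x axis, 8 weeks minus 1 week, bars SE) of each of the 108 tested probe sets, 1 point per probe set, grouped by gene and class, relative to the whole intensity distribution. All points of the snRNP class lie left of 0 apart from Snrpn and 2 probe sets of Snrpd3, while those of SF3A and SF3B stay between -0.30 and 0.25; without normalization between arrays the medians of the 4 classes all lie above 0.

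**Figure D2:**
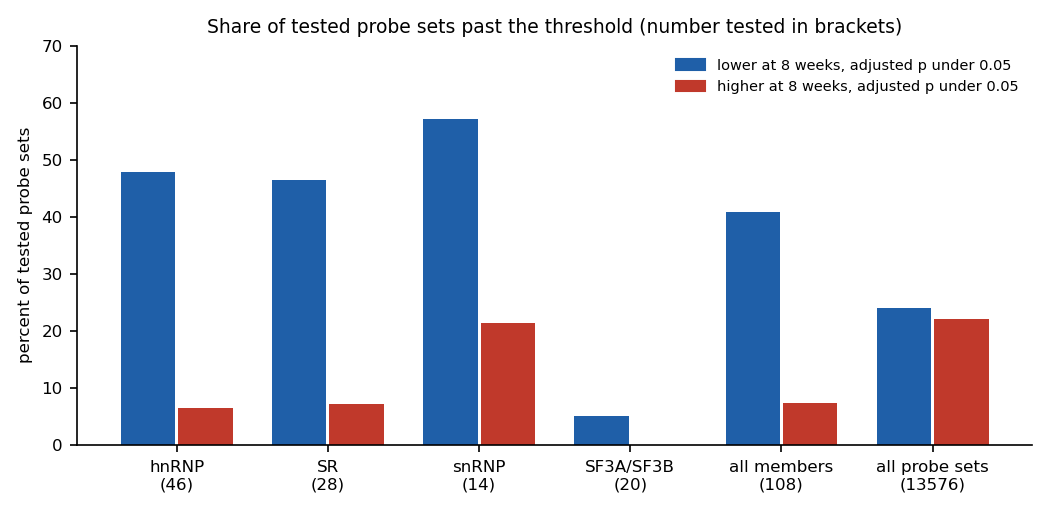
Percent of tested probe sets lower (blue) and higher (red) at 8 weeks at an adjusted p under 0.05, by class, for all 108 members and for all 13576 probe sets. The snRNP class has the tallest blue bar, at 57.1%, and the SF3 class stands at 5% lower and 0% higher. Without normalization between arrays the member counts turn to 3 lower and 44 higher, and those of all probe sets to 629 and 8673.

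By class, 8 of 14 probe sets were lower among snRNP proteins, 22 of 46 among hnRNPs, 13 of 28 among SR proteins and 1 of 20 in SF3A and SF3B. Higher ones numbered 3 of snRNP proteins, 3 of hnRNPs, 2 of SR proteins and 0 of SF3. Of those of snRNP proteins, Snrpn 1432096_at and Snrpd3 1422885_at passed the filter through the arrays of 8 weeks. With the filter at the median 1 snRNP probe set was higher. Among the lower ones, Hnrnph1 1437267_x_at and Srsf10 1418526_at passed through the arrays of 1 week. Over all probe sets 24% were lower and 22% higher. At an unadjusted p under 0.05 with limma the SF3 probe sets counted 0 higher and 3 lower. The median changes of snRNP, hnRNP, SR and SF3 probe sets were -0.35, -0.26, -0.28 and 0.0011. They were, on the deposited scale, 0.084, 0.26, 0.21 and 0.48, so the classes kept to the same side of the median of all probe sets, 0.47 there. The difference between classes was not tested.

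Genes of the Sm ring, Snrpe, Snrpg and Snrpd3, had the 3 largest falls among the 44 member genes read by their brightest probe set. In Snrpd3, however, 2 other probe sets rose, so no single direction can be given for that gene. Snrpe, which encodes the Sm ring protein SmE, read 449.9, 548, 553 and 541 at 8 weeks, against 953 to 1097 with a median of 1047 at 1 week. Every array of 8 weeks lay below every array of 1 week (log2 -0.96 ± 0.079, adjusted p = 8.83e-06), 0.514 times the level at 1 week. It was also lower without normalization between arrays, at -0.42. Snrpg, the gene of the Sm protein SmG, read 501, 473, 493 and 422 at 8 weeks, against 741 to 957 with a median of 903 at 1 week with probe set 1448358_s_at (log2 -0.87 ± 0.083, adjusted p = 2.23e-05). Its other probe set, 1448357_at, changed by -0.64 ± 0.089. Both probe sets of Snrpg separated the ages without overlap.

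Snrpb2, whose product B″ binds U2 RNA, read 198, 191, 196 and 199 at 8 weeks, against 265 to 329.9 with a median of 295 at 1 week (log2 -0.53 ± 0.078, adjusted p = 0.00036). The 4 arrays of 8 weeks lay close together and below all of 1 week, and a further probe set, 1452422_a_at, changed by -0.45 ± 0.078. Snrpc encodes a U1 protein that helps to hold the 5′ splice site. It read 436, 409, 378 and 415 at 8 weeks, against 529.9 to 677 with a median of 582 at 1 week (log2 -0.50 ± 0.083, adjusted p = 0.000781), again with no overlap. Snrpa1, the gene of the U2 protein A′, had 3 probe sets with changes from -0.24 to -0.056 and 0 called by limma, also 0 at an unadjusted p under 0.05. The falls of Snrpg and Snrpb2 lost their calls on the deposited scale, at -0.33 and -0.032, where all probe sets had a median of 0.47. With arrays scaled to the spike-in controls Snrpb2 missed the threshold (-0.38, adjusted p = 0.0542). Snrpc and the further probe set of Snrpb2 lost their calls on both of these scales (adjusted p up to 0.816 and 0.936 with limma).

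Snrpb and Snrpn encode the closely related Sm proteins SmB and SmN, of which SmN is made mainly in brain, from an imprinted locus. They moved in opposite directions. Snrpn read 126, 143, 123 and 111.8 with probe set 1432096_at at 8 weeks, against 50.2 to 111.7 with a median of 60.2 at 1 week. It rose (log2 0.73 ± 0.16, adjusted p = 0.00358), 1.66 times the level at 1 week. The ages were separated by a narrow gap, since replicate 1 labelled female at 1 week stood at 111.7 and the other 5 arrays there at 74.0 or below. Snrpb read 572, 582, 579.6 and 625 at 8 weeks, against 648 to 741 with a median of 712 at 1 week, and fell (log2 -0.25 ± 0.071, adjusted p = 0.0165). The fall of Snrpb was the smaller of the pair's changes and lost its call without replicate 1 labelled female or replicate 1 labelled male at 8 weeks (adjusted p = 0.0523 and 0.0606). It also lost it with median scaling (adjusted p = 0.0587) and with spike-in scaling (-0.067, adjusted p = 0.767), and turned to 0.30 on the deposited scale. Without the 4 arrays against their label the fall was as large and not called (-0.26, adjusted p = 0.0904). Its adjusted p ran from 0.00767 to 0.767 over all alternatives. The rise of Snrpn rests on 1 dim probe set that passed the filter, set at 73.9, through the arrays of 8 weeks. It was not tested with the filter at the median, and was called with no filter. No other probe set can be set beside it, since those that carry a further symbol beside Snrpn were not members.

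**Figure D3:**
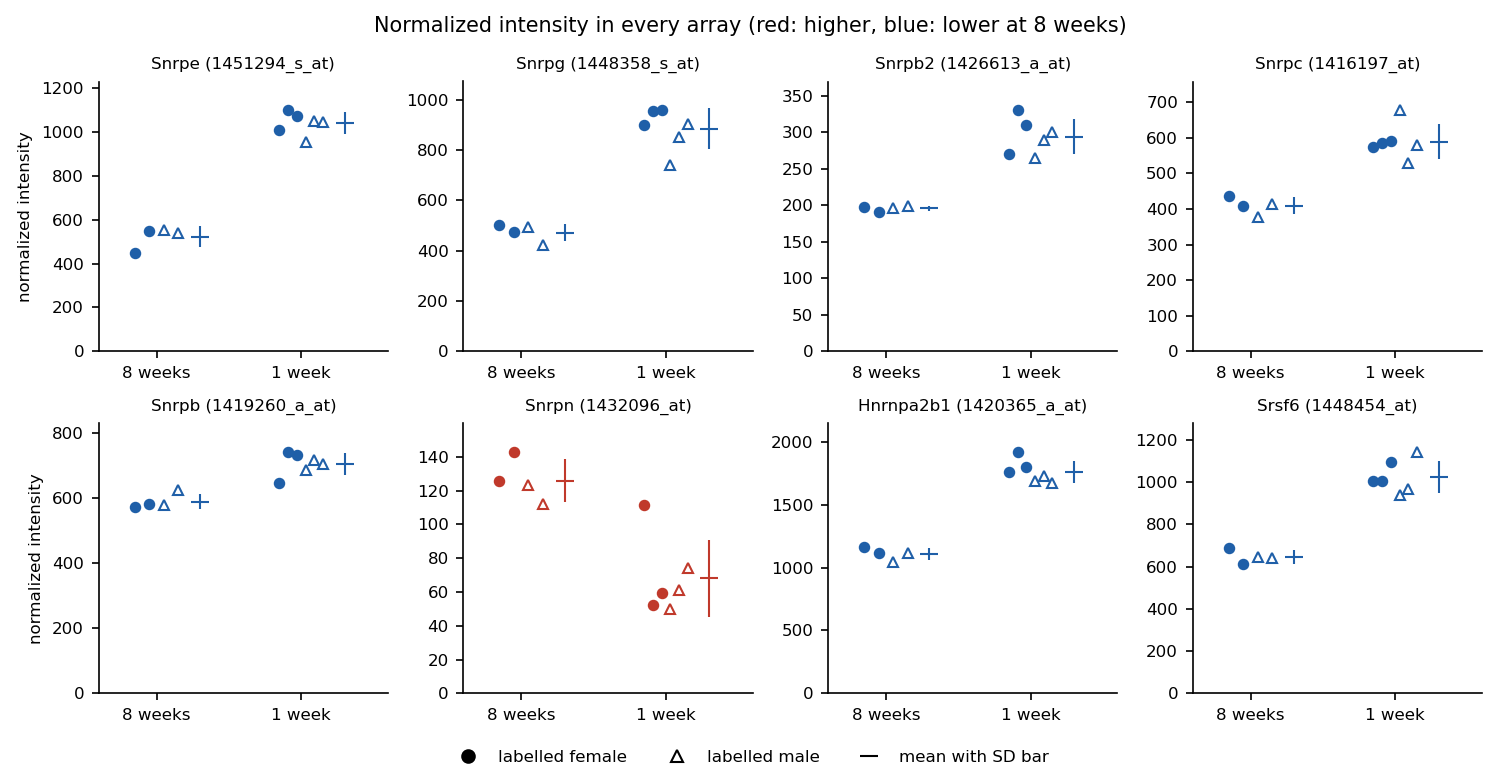
Normalized intensity (y axis, from 0) in every array for 8 probe sets, 4 arrays of 8 weeks left and 6 of 1 week right in each panel, with mean and SD bar. The ages do not overlap in any of the 8 panels, with Snrpn higher at 8 weeks and the other 7 lower; without normalization between arrays Snrpb turns to a rise of 0.30.

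Among hnRNP genes 9 of 18 were lower by their brightest probe set, 1 higher and 8 not called. Over all genes 24% were lower and 21.9% higher. Hnrnpa2b1 encodes A2 and B1, which in oligodendrocytes also carry myelin basic protein RNA into processes. Its 4 probe sets all fell, by -0.40 to -0.65, and the brightest read 1162, 1118, 1041 and 1116 at 8 weeks, against 1674 to 1915 with a median of 1742 at 1 week (log2 -0.65 ± 0.067, adjusted p = 3.59e-05). Hnrnpr encodes a protein that binds the 3′ ends of actin transcripts in motor axons of mice. It read 485, 488, 563 and 467 at 8 weeks, against 631 to 814 with a median of 784 at 1 week (log2 -0.57 ± 0.093, adjusted p = 0.000717), with no overlap between the ages. Of its other probe sets 1452030_a_at fell (-0.53 ± 0.093) and 1437526_x_at did not pass (-0.33 ± 0.16). Hnrnpa1, a repressor of splice sites, read 480.1, 381, 383 and 395 at 8 weeks, against 521 to 667 with a median of 563 at 1 week (log2 -0.48 ± 0.10, adjusted p = 0.00222). The suffix of that probe set marks oligonucleotides that can also match other transcripts, and Hnrnpa1 has many processed pseudogenes, so its signal may be shared. The other tested probe set of Hnrnpa1, 1436549_a_at, fell less (-0.27 ± 0.10, adjusted p = 0.0461 with limma), and its ages overlapped. Leaving out 1 array at a time lost that call in 6 of 10 runs.

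The other hnRNP genes with a lower brightest probe set changed less than 0.5 on the log2 scale. Hnrnpl, whose product binds CA repeats, changed by -0.46 ± 0.12, Hnrnph1, of a protein that binds G runs, by -0.43 ± 0.11 and its relative Hnrnpf by -0.40 ± 0.13. Hnrnpf fell in 3 of 4 probe sets, down to -0.73 in 1423382_a_at, and Hnrnph1 in both of its own. The dimmer one of Hnrnph1, 1437267_x_at, stood at 70.7 at 8 weeks, under the filter of 73.9. It passed through the arrays of 1 week, and its call was lost without replicate 2 labelled female or 1 labelled male at 8 weeks (adjusted p up to 0.0789 with limma). Hnrnpll, a splicing regulator known from T cells, fell in 1 of 2 probe sets (-0.28 ± 0.093), as did Hnrnpk, whose product binds C runs, in 1 of 4 (-0.28 ± 0.092). The call of the brightest Hnrnpf probe set was lost without replicate 1 or 3 labelled male at 1 week, or 1 or 2 labelled female or 1 labelled male at 8 weeks (adjusted p up to 0.0914 with limma). That of Hnrnpll was lost without replicate 1 or 3 labelled female or 2 or 3 labelled male at 1 week, or 2 labelled female or 1 labelled male at 8 weeks (adjusted p up to 0.13). Hnrnpk lost its own without replicate 2 labelled female or 2 or 3 labelled male at 1 week, or without replicate 2 labelled female or either replicate labelled male at 8 weeks (adjusted p up to 0.137). Hnrnph3 was the gene that rose, reading 229, 242, 241 and 264 at 8 weeks, against 143 to 215 with a median of 202 at 1 week (log2 0.31 ± 0.10, adjusted p = 0.0291). This call was lost without the 4 arrays against their label (0.44, adjusted p = 0.0575), without replicate 1 labelled female at 1 week, and without replicate 1 or 2 labelled female or replicate 2 labelled male at 8 weeks (adjusted p from 0.0560 to 0.0953, 4.15e-04 to 0.0953 over all alternatives). Hnrnpdl, the relative of Hnrnpd, had 5 tested probe sets and limma called 0, with changes from -0.17 to 0.36 and 0 at an unadjusted p under 0.05. Its brightest read 2312, 2093, 2532 and 2494 at 8 weeks, against 2058 to 2395 with a median of 2139 at 1 week (log2 0.12 ± 0.072, adjusted p = 0.202). Hnrnpd, Hnrnpm, Hnrnpul1, Hnrnpul2 and the X-linked Hnrnph2 were not called either.

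Hnrnpa1 on the deposited scale turned to 0.050, and Hnrnpa2b1 and Hnrnpr lost their calls at -0.11 and -0.015, beside a median of 0.47 over all probe sets. Hnrnpa1 also missed the threshold with spike-in scaling (-0.32, adjusted p = 0.128). The brightest probe sets of Hnrnpf, Hnrnph1, Hnrnpk, Hnrnpl and Hnrnpll lost their calls on both of these scales.

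SR protein genes were lower in 3 of 9 by their brightest probe set, higher in 1 and not called in 5. Of all genes 24% were lower and 21.9% higher, and the difference from those shares was not tested. Srsf6, which encodes SRp55, read 689, 611, 645 and 639 at 8 weeks, against 938 to 1140.4 with a median of 1004 at 1 week (log2 -0.64 ± 0.082, adjusted p = 0.000139). Its arrays of 8 weeks all lay below those of 1 week, and 1416721_s_at changed alike (-0.47 ± 0.10), while 1416720_at did not pass (-0.12 ± 0.20). Srsf10 encodes SRp38, which represses splicing when it loses its phosphates in mitosis or heat shock. Its 4 probe sets all fell, and the brightest read 157, 165, 150.3 and 167 at 8 weeks, against 187 to 236 with a median of 206 at 1 week (log2 -0.34 ± 0.080, adjusted p = 0.00617). Another, 1418526_at, stood at 70.2 at 8 weeks, under the filter of 73.9, so it passed through the arrays of 1 week. Leaving out 1 array at a time lost the call of 1418527_a_at in 6 of 10 runs and that of 1423982_at in 5 of 10. Srsf3, the gene of the smallest SR protein, fell in 3 of 6 probe sets, down to -0.57 ± 0.090 in 1416151_at. Its brightest lost its call without replicate 2 labelled female or 1 labelled male at 8 weeks (adjusted p up to 0.0885 with limma). The same call was lost on the deposited scale, with spike-in scaling and without the 4 arrays against their label. Srsf5, the gene of SRp40, rose in its 1 probe set (log2 0.23 ± 0.079, adjusted p = 0.0383), where the ages overlapped. That call was lost with median scaling, spike-in scaling, no filter or without the 4 arrays against their label (adjusted p from 0.0504 to 0.194). It was also lost without replicate 2 labelled female, 1 labelled male or 2 labelled male at 1 week, and without replicate 1 labelled female or either replicate labelled male at 8 weeks (adjusted p from 0.0686 to 0.135).

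Srsf2, the gene of SC35, was not called by its brightest probe set, whose adjusted p lay just above the threshold of 0.05, and which read 896, 684, 669 and 798 at 8 weeks, against 828 to 1075 with a median of 906 at 1 week (log2 -0.27 ± 0.10, adjusted p = 0.05). It was called lower in 7 alternatives, which were a pseudocount of 100, the filter at the median, age alone, an intensity trend, array weights and leaving out replicate 1 labelled female or 2 labelled male at 8 weeks (adjusted p from 0.0210 to 0.0452). Of the other 3 probe sets 1415807_s_at fell without overlap of the ages (-0.62 ± 0.071) and 1452439_s_at fell (-0.28 ± 0.10), a call lost on leaving out any 1 of 8 of the 10 arrays (adjusted p up to 0.124), all but replicate 1 labelled female and 2 labelled male at 1 week. The third, 1427816_at, spread from 76.7 to 401 at 8 weeks and from 139 to 626 at 1 week and did not pass. Srsf1, the first SR protein described, fell in 2 of 6 probe sets, with changes running from -0.81 in 1430982_at to 0.058 in 1452430_s_at. Only pairs with the brightest probe set, 1453722_s_at, were tested, and none of these 5 passed (adjusted p from 0.067 to 0.718 with limma), while a pair of Srsf1 was called with the replicate block, with a pseudocount of 100, and without replicate 3 labelled female at 1 week or replicate 2 labelled female at 8 weeks. Srsf4 and Srsf9 had 1 probe set each and were not called (-0.14 ± 0.091 and -0.19 ± 0.11). Srsf6 on the deposited scale lost its call at -0.10 and Srsf10 turned to 0.14. Srsf10 also missed the threshold with spike-in scaling (-0.20, adjusted p = 0.348) and without the 4 arrays against their label (-0.31, adjusted p = 0.0520).

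SF3A and SF3B genes had 0 of 9 called by their brightest probe set with limma, and 1 of 20 probe sets was lower. Over all genes 24% were lower and 21.9% higher. Sf3a2, a subunit of the SF3A trimer, read 1203, 1247, 1189 and 1345 at 8 weeks, against 973 to 1389.6 with a median of 1193 at 1 week (log2 0.092 ± 0.094, adjusted p = 0.457). Sf3b4, an RNA-binding subunit of SF3B, read 954, 920.2, 888 and 1076 at 8 weeks, against 875 to 1181 with a median of 1030.4 at 1 week (log2 -0.10 ± 0.10, adjusted p = 0.45). In both the ages overlapped. Sf3b1, the large subunit at the branch site, had the probe set that fell, 1418562_at (-0.21 ± 0.070, adjusted p = 0.0332 with limma). That call was lost with median scaling, spike-in scaling, the replicate block or without the 4 arrays against their label (adjusted p from 0.116 to 0.941). It was also lost without replicate 2 or 3 labelled female or 3 labelled male at 1 week, and without any 1 of the 4 arrays of 8 weeks (adjusted p from 0.0530 to 0.104), and turned to 0.36 on the deposited scale. Its brightest, 1449138_at, and 1418561_at did not pass (0.020 ± 0.084 and -0.30 ± 0.14). The difference between 1418562_at and the brightest missed the threshold too (-0.23 ± 0.11, adjusted p = 0.203). On the deposited scale 16 of the 20 probe sets were called higher, where 8673 of all 13576 were. The class median there was 0.48, beside the 0.47 of all probe sets.

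**Figure D4:**
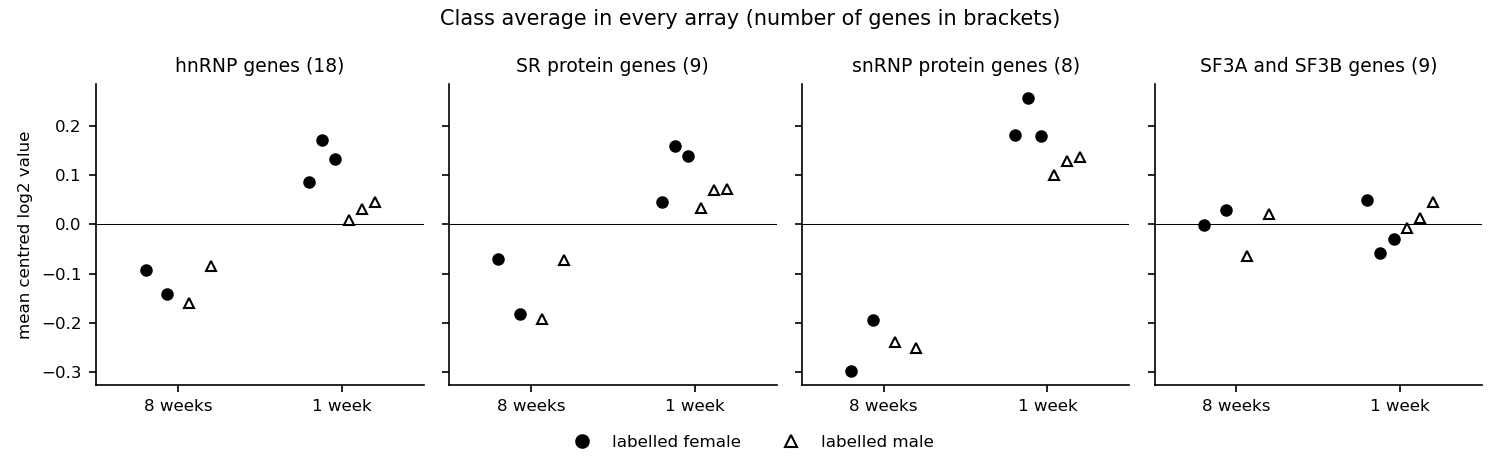
Mean over the genes of a class of the log2 value centred on the gene's mean over all arrays (y axis), 1 point per array, 8 weeks left and 1 week right. Arrays of 8 weeks lie below those of 1 week for hnRNP, SR and snRNP genes and overlap with them for SF3A and SF3B genes; these are quantile-normalized values, and without normalization the medians of the 4 classes all lie above 0.

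Class averages were taken over the brightest probe set of each gene, as a mean of centred log2 values per array. For snRNP genes they were -0.30, -0.19, -0.24 and -0.25 at 8 weeks, against 0.10 to 0.26 at 1 week. SF3 genes averaged -0.065 to 0.030 at 8 weeks and -0.058 to 0.049 at 1 week, which overlapped. Within 1 week the hnRNP average was 0.086, 0.17 and 0.13 in arrays labelled female and 0.0085, 0.032 and 0.046 in those labelled male. For snRNP genes it was 0.18, 0.26 and 0.18 in arrays labelled female and 0.10, 0.13 and 0.14 in those labelled male, while SR and SF3 averages overlapped between the labels. The arrays of the labels did not overlap for hnRNP and snRNP genes, although Xist went against the label in 4 of the 6, and the cause was not tested.

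Where a gene had several probe sets, these did not always change alike. Of 29 member genes with at least 2 tested probe sets, 6 had all of them lower and 9 had none called. Among the 6 with all lower, Hnrnph1 and Srsf10 each had a probe set that passed the filter through the arrays of 1 week. Hnrnpa1, also among them, had the call of 1436549_a_at lost in 6 of 10 runs with 1 array left out. In 10 some were lower and the rest not called, in 2 some were higher and the rest not called, and in 2, Snrpd3 and Hnrnpu, probe sets were called in both directions. To test a disagreement, the log2 difference between a probe set and the brightest one of its gene was taken in each array and fitted with limma over all 4376 such pairs on the array. It changed with age in 9 of 64 member pairs, from 5 genes, or 14.1%, where 15.1% of all pairs did, so the share lay near the background. Opposite calls were made in 3 member pairs, and in 0.891% of all pairs. On the deposited scale 9 member pairs differed as well, and all 5 genes were among them.

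Snrpd3, the gene of the Sm ring protein SmD3, held the member pair with the largest difference, that of 1422885_at from the brightest. Its brightest probe set, 1422884_at, read 273, 351, 319 and 304 at 8 weeks, against 442 to 589 with a median of 569 at 1 week and fell (log2 -0.76 ± 0.11, adjusted p = 0.000269). The probe set 1449629_s_at read 456, 387, 406 and 444 at 8 weeks, against 287 to 359 with a median of 314 at 1 week and rose (log2 0.38 ± 0.086, adjusted p = 0.00452). The dimmer 1422885_at read 105, 133, 104 and 113 at 8 weeks, against 38.5 to 87.8 with a median of 62.2 at 1 week and rose as well (log2 0.70 ± 0.16, adjusted p = 0.00504). In none of the 3 did the ages overlap. At 1 week 1422885_at lay below the filter of 73.9, so it passed through the arrays of 8 weeks, and the rise of Snrpd3 is read from 1449629_s_at. The changes of 1449629_s_at and 1422885_at differed from that of the brightest by 1.14 ± 0.14, adjusted p = 0.000483, and 1.45 ± 0.14, adjusted p = 7.48e-05. Without 1422885_at the largest difference among members would be that of 1415914_at of Hnrnpab (-1.18 ± 0.20). Which part of the transcript each of them reads was not analysed here, so no single direction can be given for Snrpd3. Without the 4 arrays whose Xist went against the label, 1449629_s_at missed the threshold (adjusted p = 0.0732), and 1422884_at did so on the deposited scale (-0.23).

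Hnrnpu encodes SAF-A, a large RNA- and DNA-binding nuclear protein that also holds Xist on the inactive X chromosome. Of its 5 probe sets 3 fell, 1423050_s_at (-0.34 ± 0.090), 1423051_at (-0.42 ± 0.086) and 1450849_at (-0.49 ± 0.094). The brightest read 1689.9, 1884, 1700.2 and 1773 at 8 weeks, against 1986 to 2509.7 with a median of 2265 at 1 week. The probe set 1434391_at read 357, 221, 232 and 287 at 8 weeks, against 164 to 203 with a median of 182 at 1 week and rose (log2 0.51 ± 0.12, adjusted p = 0.00693). Its difference from the brightest was 0.85 ± 0.15, adjusted p = 0.00391, and that of 1434390_at, not called on its own (0.18 ± 0.15), was 0.52 ± 0.14, adjusted p = 0.0355. On the deposited scale the 3 falls turned to 0.19, 0.13 and 0.063, and none of the 3 passed with spike-in scaling (adjusted p from 0.158 to 0.388). Without the 4 arrays against their label 1423050_s_at and 1423051_at were not called (adjusted p = 0.231 and 0.0643).

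Hnrnpab, whose product also binds transport signals of RNAs in brain, showed the largest fall of any member probe set and no change called in its brightest. The probe set 1415914_at read 636, 701, 798 and 775 at 8 weeks, against 1309 to 1921 with a median of 1540.5 at 1 week (log2 -1.07 ± 0.11, adjusted p = 3.79e-05), 0.478 times the level at 1 week. Lower values without overlap were also read by 1453849_s_at (-0.93 ± 0.095) and 1455855_x_at (-0.68 ± 0.11). The brightest, 1426114_at, read 2535, 2303, 2449 and 2015 at 8 weeks, against 1629 to 2698 with a median of 2144 at 1 week. It was not called (log2 0.12 ± 0.14, adjusted p = 0.522), nor was 1448144_at (-0.16 ± 0.13). Differences from the brightest were -1.18 ± 0.20, adjusted p = 0.00302 for 1415914_at, -1.04 ± 0.15, adjusted p = 0.00099 for 1453849_s_at and -0.80 ± 0.14, adjusted p = 0.00402 for 1455855_x_at. Reading the gene by its brightest probe set thus counts Hnrnpab as not called, although 3 of its 5 tested probe sets fell. On the deposited scale 1415914_at and 1453849_s_at were also called lower, at -0.52 and -0.39, while 1455855_x_at lost its call (-0.14) and 1426114_at was called higher (0.62).

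In Hnrnpc and Srsf11 a dimmer probe set rose while the brightest did not pass. Hnrnpc, the gene of a protein that binds U runs, was read by 1418693_at at 198, 188, 206 and 193 at 8 weeks, against 99.7 to 182 with a median of 142 at 1 week (log2 0.47 ± 0.13, adjusted p = 0.0136) and by the brightest, 1460240_a_at, at 1269, 1308, 1208 and 1216 at 8 weeks, against 1195 to 1462 with a median of 1366 at 1 week (log2 -0.10 ± 0.069, adjusted p = 0.253). The difference was 0.57 ± 0.14, adjusted p = 0.0186. Srsf11 encodes an SR protein that takes part in the inclusion of neuronal microexons. Its probe set 1427269_at read 212, 172, 183 and 201 at 8 weeks, against 84.9 to 166 with a median of 113 at 1 week (log2 0.63 ± 0.13, adjusted p = 0.00304), whereas the brightest, 1452371_at, read 792, 703, 724 and 729 at 8 weeks, against 682 to 804 with a median of 759.6 at 1 week (log2 -0.020 ± 0.073, adjusted p = 0.841). The difference was 0.65 ± 0.15, adjusted p = 0.0132. Both genes lost this difference without replicate 1 labelled female or replicate 2 labelled male at 8 weeks, and Hnrnpc also without replicate 1 labelled male at 8 weeks. Without the 4 arrays against their label, with 2 arrays of 1 week left, the rise of 1418693_at missed the threshold (adjusted p = 0.102).

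**Figure D5:**
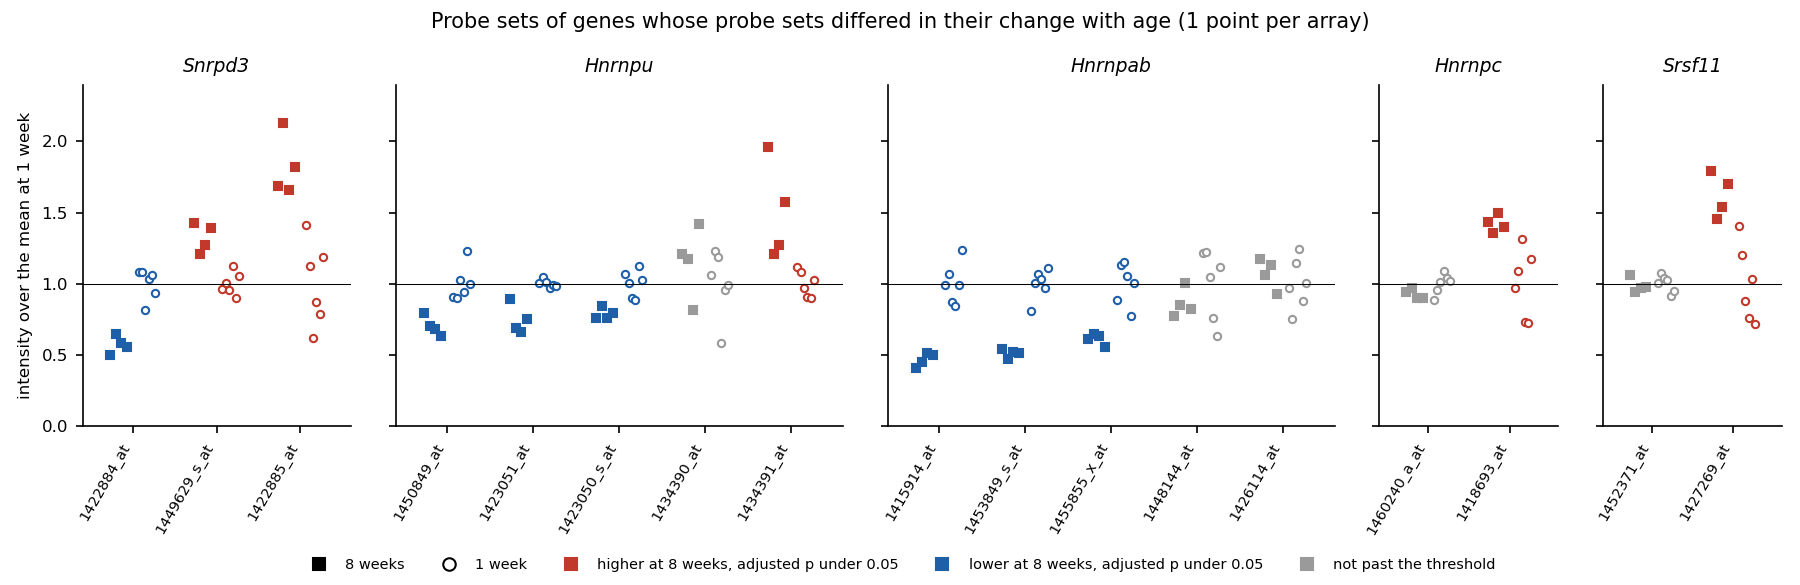
Intensity over the mean at 1 week (y axis) for every tested probe set of the 5 genes whose probe sets differed in their change with age, 4 arrays of 8 weeks as squares left of 6 arrays of 1 week as circles. In Snrpd3 and Hnrnpu squares lie below the circles for some probe sets and above them for others, and in Hnrnpab 3 probe sets fall while 2 do not pass; without normalization between arrays the falls of Hnrnpu turn above 0.

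Splicing genes outside the rule were read from 3 lists chosen with earlier results of these data known. Relatives of the hnRNPs that go by other names fell in 13 of 26 tested genes and 1 rose, 50% and 3.85% against 24% and 21.9% of all genes, with a median change of -0.23. Ptbp1, the repressor of neuronal exons that differentiating neurons switch off, fell most (-0.96 ± 0.080). It was followed by Syncrip, the gene of hnRNP Q (-0.73 ± 0.065), Rbmxl1 (-0.63 ± 0.075) and Nono, a paraspeckle protein gene (-0.53 ± 0.086). The gene that rose was Raly, a relative of Hnrnpc, which read 212, 233, 217 and 232 at 8 weeks, against 53.2 to 88.8 with a median of 68.5 at 1 week (log2 1.40 ± 0.11, adjusted p = 7.35e-06). Its ages stood far apart. Raly averaged 70.5 at 1 week, under the filter, so it passed through the arrays of 8 weeks.

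Other spliceosome genes fell in 18 of 68 and rose in 8, 26.5% and 11.8%, with a median of -0.075. Falls were led by Lsm10, part of the U7 particle that trims histone transcripts (-0.78 ± 0.10), the helicase gene Ddx39a (-0.76 ± 0.082), Lsm2, of the ring on U6 RNA (-0.67 ± 0.15), and Snrnp70, which encodes the U1 70K protein (-0.63 ± 0.089). Rises were led by Syf2 (0.82 ± 0.11), Txnl4a, of the U5 particle (0.56 ± 0.077), Slu7, which acts late in splicing at the 3′ splice site (0.55 ± 0.084), and U2af1l4, a relative of the 3′ splice site factor U2AF (0.42 ± 0.074). Kinases and partners of SR proteins fell in 3 of 20, 15% against 24% of all genes, and 0 rose with limma, 0% against 21.9%, with 4 higher and 5 lower at an unadjusted p under 0.05. Those that fell were Tra2a (-0.42 ± 0.10) and Tra2b (-0.29 ± 0.10), activators of exon inclusion, and Scaf4 (-0.36 ± 0.093). Scaf4 averaged 69.3 at 8 weeks and likewise passed the filter through the arrays of 1 week. The same holds for Lsm2, which averaged 60.7 at 8 weeks, and for Lsm12, also among the 18 that fell, which averaged 64.4. All these directions are relative to the intensity distribution, and their values on the deposited scale were not computed.

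Cell type markers moved between the ages together with these genes. Markers of dividing cells fell in all 7 tested of 11 on the array, with a summed intensity of 872 to 950.2 at 8 weeks and 2205 to 3100.5 at 1 week. Of the tested ones, Top2a, Mcm6, Cdk1 and Rrm2 averaged 29.9, 17.5, 22.6 and 47.6 at 8 weeks, under the filter. They passed through the arrays of 1 week, so the filter favoured falls in this count. Markers of immature neurons fell in 7 of 7, with sums of 4566 to 5492 at 8 weeks and 14832 to 19346 at 1 week. Among these Sox11 averaged 26.6 at 8 weeks and also passed through the arrays of 1 week. Mature oligodendrocyte markers rose in 4 of 5 tested, with sums of 13322 to 17242 at 8 weeks and 2228 to 10364 at 1 week. Astrocyte markers rose in 3 of 6, cerebellar neuron markers in 4 of 7 and microglia markers in 6 of 6. Of all genes 21.9% rose and 24% fell. The cerebellar markers Gabra6 and Cbln3 averaged 65.3 and 49.8 at 1 week, under the filter, so they passed through the arrays of 8 weeks. Neuronal markers rose in 2 of 6 and fell in 1, with sums of 12996 to 13925 at 8 weeks and 12927 to 13759 at 1 week. Pituitary markers, of which 2 of 3 tested rose, summed to 965 to 13371 at 8 weeks, highest in replicate 1 labelled female, and 187 to 2502 at 1 week. Prl among them averaged 11.5 at 1 week, so it too passed through the arrays of 8 weeks. Liver and muscle markers, 0 of 3 called by limma, reached 4071 at 8 weeks and 4048 at 1 week, and 1 blood marker tested fell. The part of cell composition in the changes above was not tested, and in whole brain RNA fewer cells of a type and less RNA per cell cannot be told apart.

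The labels also name sex. Between arrays labelled male and female at 8 weeks, limma called 0 of 108 member probe sets, and 0% of all, with 1 member at an unadjusted p under 0.05 (0.926%, against 2.54% of all probe sets). Xist was thus not called either, though it read 1676 and 1405 in arrays labelled female and 131 and 134 in those labelled male. The fit took 1 spread per probe set over arrays of both ages. At 1 week Xist ran from 163 to 866 in arrays labelled female and from 293 to 1664 in those labelled male. Its missing call therefore does not measure how the test serves members. With 2 arrays per label at 8 weeks, a count of 0 does not show that members are alike between the sexes. At 1 week 0 were called as well and 19 had an unadjusted p under 0.05 (17.6%, against 8.47% of all). Within arrays labelled female, age changed 33 of 108, 3 higher and 30 lower, where 30.6% of all probe sets were called. Within arrays labelled male it changed 32, 7 higher and 25 lower, where 32.1% were. The age by label interaction called 0 members and 0% of all, with 4 members at an unadjusted p under 0.05. Since Xist went against the label in most arrays of 1 week, counts that use those labels compare names of arrays, not sexes.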

How the data were processed

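Intensities were deposited by the authors on a linear scale, as 1 value per probe set and array, and the software that summarised the probes is not given in the sources used here. Groups came from the labels. The 64 control probe sets of 22690 were left out. Values were quantile-normalized, 24 (their 20th percentile before normalization) was added and log2 taken, and probe sets under the 40th percentile of mean log2 were dropped. A gene was read by its brightest single-symbol probe set. limma 3.58.1 (lmFit and eBayes, run in R 4.3.3) gave the tests, with 1 coefficient per age and label, two-sided p-values and Benjamini-Hochberg adjustment over all features at 0.05. The pipeline was tested on simulated data. Genes with values were, per class, up to 4 of the largest rises and falls without overlap, up to 2 bright ones not called, genes whose probe sets differed, and Snrpb with Snrpn, and up to 4 each way per other list; further members were named to account for all of them. Members and lists were chosen with earlier results of these data known. Promoters are RefSeq's, and all 115 member symbols were current there. The number of arrays limits precision.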

Additional observations from a re-analysis of the deposited data

Results flagged for a closer look

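Within an age, 5 of 66 sets of arrays of the probe sets named above held 1 array set apart from the rest by a gap that filled a large share of the range (Dixon's test), and about 1 in 20 does so by chance. At 8 weeks, replicate 1 labelled female read 480.1 for Hnrnpa1 (1455305_x_at), where the next array stood at 395, a gap of 0.854 of the range. The same array read 449.9 for Snrpe, where the next stood at 541, a gap of 0.88. At 1 week, replicate 1 labelled female read 2395 for Hnrnpdl (1424251_a_at), next to 2157, a gap of 0.706. Replicate 1 labelled male read 143 for Hnrnph3, next to 188, a gap of 0.63. Replicate 2 labelled male read 1232 for Hnrnpu (1450849_at), next to 1028, a gap of 0.626.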

How the results depend on the processing

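Scaling mattered most. Deposited values without normalization gave 8673 higher and 629 lower of all probe sets, 44 higher and 3 lower of members, 17 and 2 of hnRNP, 7 and 0 of SR, 4 and 1 of snRNP and 16 and 0 of SF3 probe sets, and 19 and 1 of member genes. There Hnrnpa1 turned to 0.050, Hnrnpc 1460240_a_at to 0.43, Hnrnpu 1423050_s_at to 0.19, 1423051_at to 0.13 and 1450849_at to 0.063, Sf3b4 to 0.45, Snrpb to 0.30, Srsf10 to 0.14 and Srsf11 1452371_at to 0.54. Spike-in scaling lowered the lower calls to 1386 of all, 17 of members, 9 of hnRNP, 4 of SR, 4 of snRNP and 0 of SF3 probe sets and 6 of genes, with 1 SR probe set higher; among calls over all probe sets the higher ones were 69.5% there, 93.2% without normalization and 47.9% with quantile normalization. Median scaling left 1 SR probe set higher and 0 of SF3 lower. Leaving out the 4 arrays against their label, with age alone in the model, gave 1973 of all and 26 of member probe sets lower, 3 of SR lower and 1 higher, 1 of SF3 higher, and 10 genes lower and 1 higher. SF3 probe sets lower numbered 2 with a pseudocount of 100, the filter at the median, age alone or array weights. The snRNP class had 1 higher with the filter at the median, and SR 1 higher with no filter. A 1.5-fold minimum left 1246 higher and 1243 lower of all, 3 and 13 of members, 0 and 6 of hnRNP, 1 and 3 of SR, 2 and 4 of snRNP and 0 and 0 of SF3. Genes read by the probe set with the largest t gave 5 higher. The causes were not tested.

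Leaving out 1 array at a time gave 2480 to 2936 higher and 2729 to 3126 lower of all probe sets, 6 to 9 and 32 to 47 of members, 2 to 4 and 16 to 22 of hnRNP, 1 to 2 and 8 to 15 of SR, 3 to 3 and 7 to 9 of snRNP, 0 to 0 and 0 to 2 of SF3, and 1 to 3 and 13 to 20 of genes. Differing pairs ran from 356 to 604 of all and 6 to 10 of members. The 8 SR falls came without replicate 1 labelled male at 8 weeks, where 394 pairs differed; without replicate 1 labelled female or replicate 2 labelled male there, 370 and 356 pairs differed and 1 gene was higher. Arrays of the same replicate number had correlated deviations of -0.025 to 0.19, a median of 0.098 and over 0.1 in 5 of 13 pairs, against a median of -0.060 and 1 of 24 pairs for different numbers. Of the 10 arrays, 8 correlated best with one of their own number. This is a hint from the data, not from the design. Not every pair passed 0.1, so the numbers were not taken to pair the arrays. With the replicate block, 8 member probe sets were higher and 36 lower, 0 of SF3 were lower, and the call held for all 33 probe sets followed by name. Of the 52 member calls 37 held on leaving out each array in turn.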
